A study of Mus musculus with 11 samples.

Results

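Differentiating mouse fat cells were followed from day 4 to day 8 in medium without rosiglitazone (ROS), a ligand of PPARγ. The cells were im-scWAT, a line of preadipocytes from inguinal subcutaneous white fat that was immortalized with large T antigen and was not transduced further. One RNA-seq library was made at each of the 2 days, out of 11 samples in the series, so the change has no replicate of its own. The genes described are those with an FPKM (fragments per kilobase of exon, scaled to library size) of at least 1 in either library, which was the case for 12607 of 29955 gene symbols. Of these, 11474 were annotated as protein-coding.

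All differentiating cultures received the same induction for 2 days, with indomethacin at 0.125 mM, dexamethasone at 5 μM, IBMX at 0.5 mM, insulin at 5 μg/ml and the thyroid hormone T3 at 1 nM. They were then kept with insulin and T3. Cultures with ROS, which serve here for comparison, had it at 0.5 μM and had 1 sample at day 4 and 1 at day 8. A pair of day 0 samples held preadipocytes before induction. One of them is labelled as the start of the course with ROS and the other as the start without it, and they give the only measure of spread among the 6 untransduced samples. Whether the pair came from separate cultures is not stated, so that spread may be technical. Mapped bases behind the values totalled 3.1 Gb at day 4 and 4.35 Gb at day 8 without ROS, and 4.64 to 5.08 Gb in the other 4 samples. At day 4, the shallowest, a transcript of 2 kb covered by 100 bases would have an FPKM of 0.0161.

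Adipocyte differentiation is driven by the nuclear receptor PPARγ and by C/EBPα, which together switch on genes for fatty acid binding, triglyceride storage and secreted adipokines. Early in the process the cells leave the cell cycle and lose matrix and stromal genes, and later they fill lipid droplets. When differentiated without ROS, cells of subcutaneous fat take on mainly a white phenotype and express few of the genes for heat production.

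The adipocyte identity of both libraries was checked on marker genes. Adipoq, which encodes adiponectin, had an FPKM of 0.121 and 0.0519 in the day 0 pair, 881 at day 4 and 709 at day 8. Plin1, the perilipin that coats the lipid droplet, had 0.0574 and 0.0229 in the pair, 165 at day 4 and 144 at day 8. Both were therefore far above the preadipocytes at both days. Lep, which encodes leptin, stayed below the minimum at 0.0196 and 0.252, and Ucp1, the uncoupling protein of brown and beige fat, was listed at 0 at day 4 and had 0.097 at day 8. The summed FPKM of 10 endothelial markers was 0.632 at day 4 and 1.2 at day 8, and that of 10 macrophage markers was 1.88 and 3.42. The pan-leukocyte gene Ptprc, the macrophage gene Emr1, the endothelial gene Cdh5 and the muscle genes Myod1 and Ckm were listed at 0 on both days. Epithelial markers summed to 0 and 0.15 over 8 genes, and mesothelial markers to 0.16 and 1.18 over 7. Other lists summed higher. Skeletal muscle markers had 4.56 and 13.6 over 12 genes, with 0.71 and 0.857 in the day 0 pair. Pericyte and smooth muscle markers had 32.7 and 45 over 9, with 135 and 143 in the pair. Bone and cartilage markers had 19 and 38 over 12, with 18.2 and 17.7 in the pair.

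Most genes kept their level between the 2 days. A change is given as the log2 ratio of FPKM + 0.1 at day 8 over day 4, which understates changes of low genes, and a gene is counted when it differed at least 2-fold. By this rule 636 genes were higher at day 8 (5.04% of those considered) and 244 were lower (1.94%), and 11727 lay within 2-fold. At 4-fold the imbalance was larger, with 136 genes higher and 9 lower. When the upper quartiles of the libraries were set equal, 548 were higher and 343 lower, so the higher genes made up 61.5% of the calls and not 72.3%. The median log2 ratio was 0.058. In the day 0 pair, by the same rule over 12009 genes, 11 were higher in replicate 2 (0.0916%) and 56 were lower (0.466%). The SD of the log2 ratio was 0.592 between the days and 0.244 within the pair. The pair differed in mapped bases for all but 2 of its genes.

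**Figure D1:**
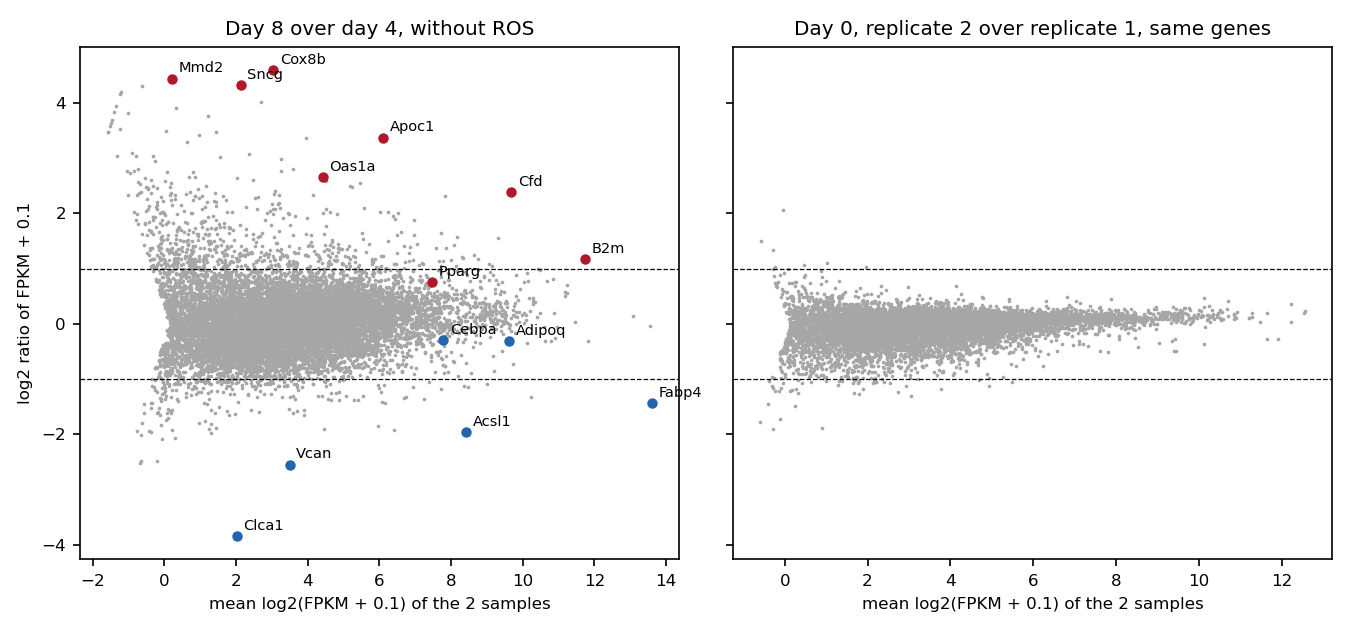
Log2 ratio of FPKM + 0.1 against the mean level for genes with FPKM of at least 1 at day 4 or day 8 without ROS (left), and the same genes, where FPKM was at least 1 in either sample, in the day 0 pair (right). Each point is a gene, dashed lines mark 2-fold, red and blue points mark named genes with positive and negative log2 ratios. The cloud at left is wider (SD 0.592) than that of the pair (SD 0.244 over all genes of the pair), and extends further upward than downward.

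Genes with low starting levels made up part of the higher group. Of the 439 genes under an FPKM of 1 at day 4, 246 were at least 2-fold higher at day 8, as the minimum itself requires a value of at least 1 on the other day. The same limit holds for genes of the lists below that were under 1 at day 4, such as Aldoc, Cidea, Pi16 and Timp4. Among 5630 genes with an FPKM from 10 to under 100 at day 4, 108 were higher and 70 lower. Just inside the minimum lay Tcea3, with 0.43806 at day 4 and 1.00051 at day 8, and just outside it Stc1, with 0.40074 and 0.99856.

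A test that takes its spread from the day 0 pair has 1 residual degree of freedom and assumes that the single cultures vary like the pair. In limma, over all 12607 genes, 0 genes passed an adjusted p of 0.05 for day 8 against day 4 (0% called), 3914 had an unadjusted p under 0.05, and the smallest adjusted p was 0.0868. The counts above therefore describe these 2 libraries. No gene below is called by a test.

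Exon length moved with the change. The median log2 ratio was 0.26 in the fifth of genes with the shortest exon length, 65 to 1423 bases, and -0.29 in the fifth with the longest, 4365 to 21718 bases. Genes at least 2-fold higher had a median exon length of 1754 bases, and those at least 2-fold lower 3332 bases. With ROS the medians of the same groups were 0.10 and -0.33, and within the day 0 pair they were 0.08 and -0.08. The Spearman correlation of the log2 ratio with exon length was -0.375 without ROS, -0.301 with ROS and -0.322 in the day 0 pair. The trend was thus not particular to the step from day 4 to day 8. After the median of each exon length decile was taken out, 501 genes were higher and 256 lower, and 650 of the 880 genes past 2-fold remained so in the same direction. The part of exon length in single genes was not tested.

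**Figure D2:**
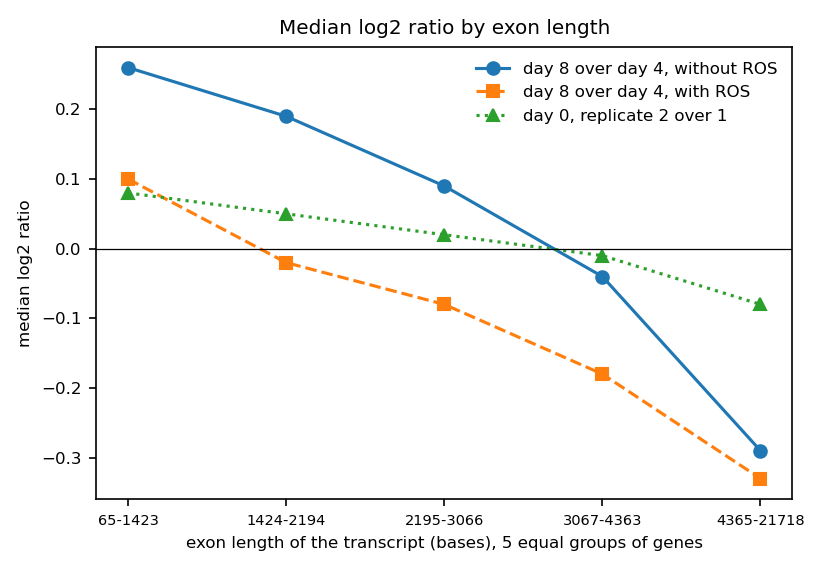
Median log2 ratio (vertical axis) in 5 equal groups of the 12607 genes by exon length in bases (horizontal axis), for day 8 over day 4 without ROS (circles), with ROS (squares) and for the day 0 pair (triangles). The line without ROS goes from 0.26 to -0.29, and that of the pair from 0.08 to -0.08.

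Among regulators of adipogenesis, levels were mostly kept. Of 21 genes measured, 2 were at least 2-fold higher and none was lower, with a median log2 ratio of 0.25. Pparg, at chromosome 6 from 115372084 to 115440419 of build mm9, stood at 19.0 and 19.3 FPKM in the day 0 pair, at 136 at day 4 and at 231 at day 8, a log2 ratio of 0.76. With ROS it had 115 and 140. Cebpa, its partner in maintaining the adipocyte program, had 244 at day 4 and 200 at day 8. The genes past 2-fold were Rxrg, a retinoid X receptor that pairs with nuclear receptors such as PPARγ, with 6.37 and 15.1, and Ddit3, the stress-induced C/EBP family member CHOP, with 81.2 and 182. The lowest log2 ratios belonged to Ebf2, an early B cell factor linked to brown and beige fate, with 6.33 and 3.24 (-0.95), and to Cebpd, an early C/EBP, with 24 and 15.1 (-0.67).

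Several genes for fatty acid binding, uptake and triglyceride synthesis were lower. Of 16 genes measured, 4 were at least 2-fold lower, 1 was higher and 11 lay within 2-fold, and the median log2 ratio was -0.60 against 0.058 over all genes. Fabp4, the main fatty acid binding protein of adipocytes, at chromosome 3 from 10204343 to 10208576, had an FPKM of 248 and 249 in the day 0 pair, 20694 at day 4 and 7631 at day 8. That is a log2 ratio of -1.44 and the largest loss of FPKM of any gene considered. With ROS Fabp4 had 29590 at day 4 and 31402 at day 8. In limma the difference between the changes without and with ROS was -1.52 with an SE of 0.158, at an adjusted p of 0.231. In bulk RNA, fewer cells that express a gene and less RNA per cell cannot be told apart.

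Acsl1, the acyl-CoA synthetase that activates fatty acids, at chromosome 8 from 47556396 to 47621404, had 679 at day 4 and 175 at day 8, a log2 ratio of -1.96. With ROS it was lower too, at 902 and 423. Fabp5, a second fatty acid binding protein, had 1926 and 765 without ROS and 2129 and 933 with it. The remaining gene past 2-fold was Agpat9, an acyltransferase of the glycerolipid pathway, with 102 and 47.2 without ROS and 118 and 50.5 with it. Acsl1, Fabp5 and Agpat9 were thus lower at day 8 in both courses, while Fabp4 was lower in the course without ROS. Lpl, the lipoprotein lipase that frees fatty acids for uptake, had 1083 and 658. Mogat1, a monoacylglycerol acyltransferase, was the gene above 2-fold, with 1.25 and 4.42. Dgat2, which makes triglyceride from diacylglycerol, had 222 and 280.

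Genes of the droplet and of lipid breakdown were mostly within 2-fold. Of 13 droplet proteins, 1 was higher and none lower, with a median of -0.21. Cidec, which drives droplet fusion, had 784 at day 4 and 436 at day 8 without ROS, and 1507 and 2087 with ROS. Plin2, another droplet coat protein, had 272 and 416. Of 12 genes of lipolysis and its adrenergic control, 1 was higher and 1 lower, with a median of -0.29. Adora1, an adenosine receptor that restrains lipolysis, had 5.01 and 19.1, and Prkar2b, a regulatory subunit of protein kinase A, had 163 and 64.4. Pnpla2, the first lipase of triglyceride breakdown, had 369 and 306 without ROS and 494 and 924 with it.

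**Figure D3:**
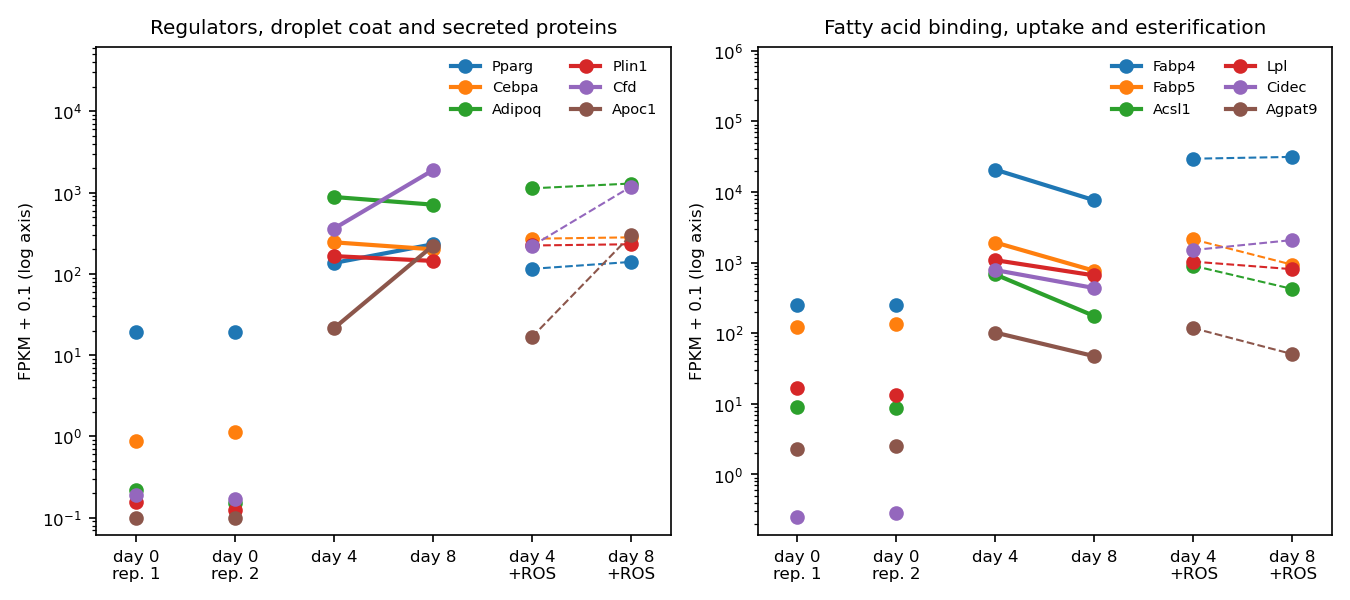
FPKM + 0.1 on a log axis for named adipocyte genes in each of the 6 samples, with the day 0 pair as unjoined points, solid lines for day 4 to day 8 without ROS and dashed lines for the course with ROS. Fabp4 goes from 20694 to 7631 without ROS and from 29590 to 31402 with ROS, while Cfd and Apoc1 are higher at day 8 in both courses.

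Several secreted proteins of the adipocyte were higher at day 8. Of 17 measured, 6 were at least 2-fold higher, none was lower and 11 lay within 2-fold, with a median log2 ratio of 0.91. Apoc1, a small apolipoprotein, was listed at 0 in both day 0 samples and had an FPKM of 21.3 at day 4 and 222 at day 8, a log2 ratio of 3.37. Cfd, the complement factor adipsin, at chromosome 10 from 79353598 to 79355401, had 0.0925 and 0.0698 in the pair, 360 at day 4 and 1887 at day 8. Rarres2, which encodes the chemoattractant chemerin, had 32.2 and 132. With ROS the same genes were also higher at day 8, where Apoc1 had 16.6 and 299, Cfd 220 and 1182 and Rarres2 29.1 and 128. The others past 2-fold were Rbp4, Pltp and Hp. Haptoglobin, encoded by Hp, had 137 and 304 without ROS and 67.4 and 73.2 with it. The lowest of the list was Fgf21, a hormone of fasting, with 3.2 and 1.93.

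Complement genes other than Cfd were looked at in a group that includes it and was chosen after the values were seen. Of 16 measured, 6 were at least 2-fold higher and none lower, against 5.04% and 1.94% of all genes, and with ROS 5 were at least 2-fold higher. The 6 include Cfd itself. They also include C2, with 0.461 and 1.92, and C4a, with 0.614 and 2.21, which reached the minimum only at day 8. C4b had an FPKM of 7.85 at day 4 and 39.9 at day 8, and Cfb, the substrate that adipsin cleaves, had 4.19 and 19. The values with ROS were 5.54 and 26.5 for C4b and 3.21 and 7.34 for Cfb. C3, the central component, had 0.79 and 0.636 at day 0, 616 at day 4 and 613 at day 8, and with ROS 427 and 230. C4a and C4b are close copies, so reads may have been split between them.

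Genes of the interferon response were higher at day 8. All 33 listed genes were measured, 19 were at least 2-fold higher at day 8 and none was lower, and their median log2 ratio was 1.17. Interferons induce genes that block viral replication and present antigen. With ROS, the same 33 genes had a median of 0.01, with 2 at least 2-fold higher and 1 lower, and in the day 0 pair a median of 0.25. After removal of the exon length medians, 17 were higher and the median without ROS was 1.01.

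The highest ratios of the list were those of sensors of double-stranded RNA and of Ifi27l2a. Oas2, an oligoadenylate synthetase, had an FPKM of 1.36 and 1.39 at day 0, 4.48 at day 4 and 31.9 at day 8, a log2 ratio of 2.80. Oas1a, at chromosome 5 from 121346266 to 121357534, had 4.05 and 6 at day 0, 8.46 at day 4 and 54 at day 8. Its relative Oas3, one of the 10 coding genes with the highest ratios, had 0.712 and 8.93. Oas genes are similar in sequence, and how shared reads were assigned is not given in the sources used here. With ROS, Oas1a had 7.85 and 12.7. The difference between its changes without and with ROS was 1.98 with an SE of 0.485 and an adjusted p of 0.274 in limma.

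Ifi27l2a, an interferon-induced membrane protein, had 102 and 504 without ROS and 79.6 and 296 with it. Irf7, the regulator that amplifies type I interferon production, had 66 and 241 without ROS and 59.2 and 101 with it. Isg15, a ubiquitin-like protein, had 284 and 645 without ROS and 273 and 158 with it. At the low end stood the RNA sensor gene Ddx58, with 69.4 and 75.7, within 2-fold. For the difference of the 2 courses, limma called 0 of 12607 genes at an adjusted p of 0.05 (0% called), with 2060 at an unadjusted p under 0.05 and a smallest adjusted p of 0.231.

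Class I antigen presentation was looked at beside the interferon response, and the groups overlap, as B2m is in both. Of 14 genes of this path, a group chosen after the values were seen, 6 were at least 2-fold higher and none lower, with a median of 0.87, and with ROS none was 2-fold higher and the median was 0.29. B2m, the light chain of class I molecules, at chromosome 2 from 121973423 to 121978818, had 757 and 773 at day 0, 2277 at day 4 and 5130 at day 8. It was the gene with the largest gain in FPKM. Psmb8 and Psmb9, catalytic subunits of the immunoproteasome that cuts peptides for presentation, had 37.4 and 154, and 45 and 168. Tap1, which carries peptides into the endoplasmic reticulum, had 43.3 and 102. With ROS the values were 2011 and 2915 for B2m, 42 and 72 for Psmb8, 48.7 and 77.7 for Psmb9 and 44.9 and 64.4 for Tap1. At the low end the chaperone Pdia3 had 138 and 146, and with ROS 116 and 84.2.

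Symbols of the H2 family, which encode mostly the heavy chains of mouse histocompatibility molecules, were looked at after these values were seen. All 22 measured were above 0 on the log2 scale, from 0.12 to 2.58, and 14 were at least 2-fold higher. With ROS none of the 22 was, and their values ran from -0.83 to 0.93. H2-K1 had 984 at day 4 and 1956 at day 8, and H2-D1 had 1016 and 1993. H2-Q7 had 18.3 and 107, with 18.9 and 36.1 under ROS. Several H2 genes are near-identical in sequence and some symbols cover the same locus, so these are not 22 independent values.

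**Figure D4:**
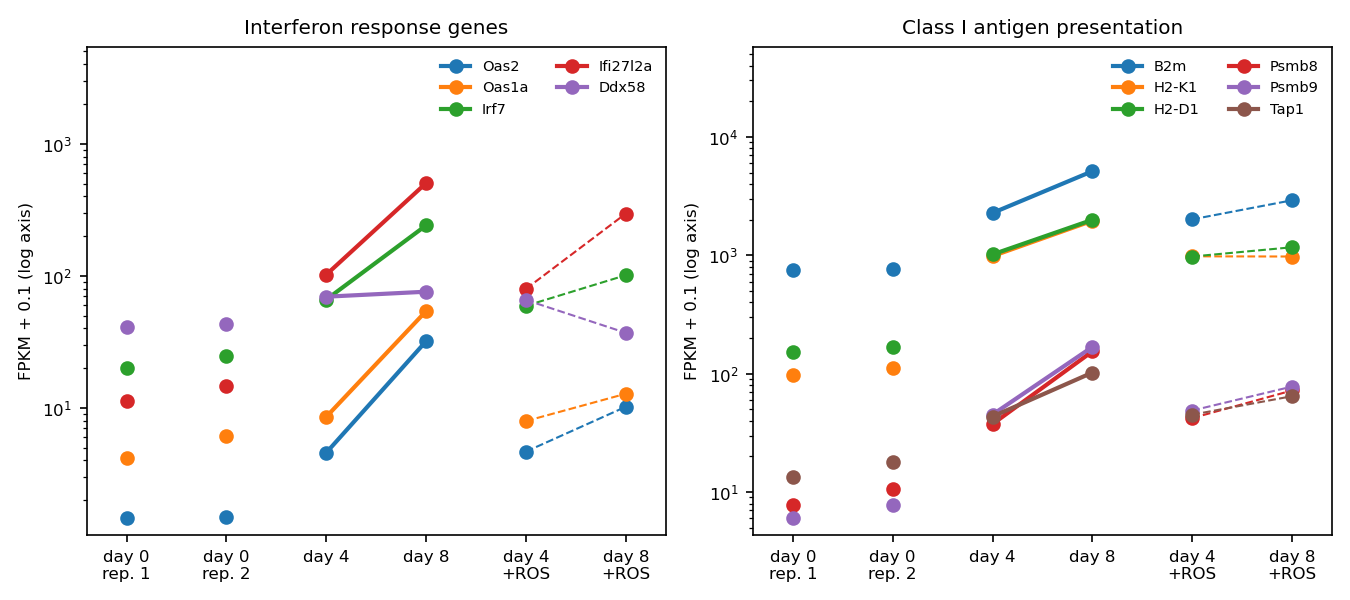
FPKM + 0.1 on a log axis for interferon response genes (left) and genes of class I antigen presentation (right) in each of the 6 samples, with the day 0 pair as unjoined points, solid lines without ROS and dashed lines with ROS. Oas1a goes from 8.46 to 54 without ROS and from 7.85 to 12.7 with ROS, and Ddx58 from 69.4 to 75.7 and from 65.5 to 36.9.

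Promoters of these genes were read for the core of the interferon-stimulated response element, a motif chosen after the values were seen. The letters searched were GAAANNGAAA on both strands, in the 300 bases from 250 before to 50 after each start in the RefSeq promoters of build GRCm38.p6. Of the 33 interferon response genes, 24 had a promoter under the same symbol, and 12 of them (50%) held the motif, against 1079 of 27025 symbols (3.99%). It was present in 6 of 14 that were at least 2-fold higher and in 6 of 10 that were not. The genes were listed as interferon-responsive, so their share describes the list and cannot speak to the change. Among all genes at least 2-fold higher, 38 of 336 with a promoter held it (11.3%), the listed genes included. Among those lower it was 3 of 121 (2.48%), and among all genes considered 300 of 7921 with a promoter (3.79%). The match is a description of the letters and not of binding. The stretches below show the match nearest the start in the 6 genes that were at least 2-fold higher and held it, 5′ to 3′ on the strand of the gene, with the motif in capitals (the reverse complement reads TTTC, 2 bases, TTTC).
B2m, chr2:122147523-122147582, plus strand: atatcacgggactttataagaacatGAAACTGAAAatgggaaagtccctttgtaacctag
Gbp2, chr3:142620579-142620638, plus strand: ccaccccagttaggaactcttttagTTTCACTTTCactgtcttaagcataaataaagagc
Ifit3, chr19:34583382-34583441, plus strand: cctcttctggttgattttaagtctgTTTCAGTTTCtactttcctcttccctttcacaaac
Isg15, chr4:156200850-156200909, minus strand: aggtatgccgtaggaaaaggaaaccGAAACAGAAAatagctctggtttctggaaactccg
Oas1a, chr5:120907526-120907564, minus strand: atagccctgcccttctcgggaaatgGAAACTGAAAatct
Rsad2, chr12:26456538-26456597, minus strand: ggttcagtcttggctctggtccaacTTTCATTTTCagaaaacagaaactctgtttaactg
Of these genes, Gbp2, a guanylate-binding protein, had an FPKM of 62.7 at day 4 and 167 at day 8. Rsad2, which encodes the antiviral enzyme viperin, had 9.77 and 29.7, and with ROS 8.99 and 8.22. Ifit3, which binds viral RNA with its relatives, had 71.4 and 217, and with ROS 54.8 and 54.4.

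Other inflammatory genes were mixed. Of 27 chemokines, cytokines and acute phase genes, 5 were at least 2-fold higher and 3 lower, with a median of -0.04. Lcn2, the iron-binding lipocalin, was listed at 0 at day 0 and had an FPKM of 15.2 at day 4 and 85.4 at day 8. The lower genes were the adhesion molecule Vcam1, with 44.7 and 18.9, and the chemokines Cxcl13, with 4.4 and 2.06, and Ccl11, with 2 and 0.915.

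Energy metabolism separated by pathway. Of 23 genes for glycolysis and glucose transport, 4 were at least 2-fold higher and 1 lower, with a median of 0.64. Pkm2, the pyruvate kinase, had an FPKM of 1285 and 1369 at day 0, 398 at day 4 and 817 at day 8. Pfkp, a phosphofructokinase, had 15.9 and 41.9, and Aldoc, an aldolase, had 0.902 and 4.11. The lower gene was Pfkfb3, which makes an activator of glycolysis, with 72.5 and 29.4. With ROS the median over these genes was 0.35. Without ROS it was 0.52 after the exon length medians were removed, with 3 genes higher.

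Mitochondrial fatty acid oxidation had none of 19 genes past 2-fold in either direction and a median of 0 to 2 decimals, while with ROS the median was 0.60. Acadm, an acyl-CoA dehydrogenase, was the lowest with 377 and 253, and with ROS it had 461 and 701. Of 78 nuclear genes of the respiratory chain and ATP synthase, 2 were higher and none lower, with a median of 0.20. Their median exon length was 665 bases, and after the exon length medians were removed their median was -0.07, with 2 still higher. Both are muscle and brown fat isoforms of cytochrome c oxidase subunits. Cox8b, at chromosome 7 from 148084841 to 148086345, was listed at 0 at day 0 and had 1.58 at day 4 and 40.3 at day 8, the highest log2 ratio (4.59) of the coding genes that reached an FPKM of 5. With ROS it had 1.24 and 117. Cox7a1 had 10.5 and 42.8, and with ROS 14.7 and 156. Transcripts of the mitochondrial chromosome had log2 ratios between -0.57 and 0.43 without ROS and between 0.50 and 1.02 with it, over 9 symbols, a group chosen after the values were seen. The TCA cycle list had none of 24 genes past 2-fold, from Idh3g, with 135 and 180, down to Dld, with 120 and 70. Of 23 genes of branched-chain amino acid catabolism, Bckdha, a subunit of the dehydrogenase that commits these amino acids to breakdown, passed 2-fold with 57.9 and 122. None of the 23 was 2-fold higher after the exon length medians were removed.

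Of 16 beige and brown markers measured, 5 were at least 2-fold higher without ROS and 2 lower, with a median of 0.50, and with ROS 10 were higher and the median was 1.65. With a minimum FPKM of 5 the median without ROS turned to -0.33 over 10 genes. Cidea, a droplet protein of brown fat, had 0.11 and 1.34 without ROS. Of the lower genes, Ppargc1b, a coactivator of mitochondrial genes, had 8.65 and 3.83, and Lhx8, a brown fat transcription factor, had 5.41 and 2.33. Genes of lipid synthesis were within 2-fold, with none of 20 for de novo lipogenesis and none of 23 for cholesterol past it. Scd1, the desaturase that makes monounsaturated fatty acids, had 1892 and 3100, and Fasn, the fatty acid synthase, had 454 and 340.

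**Figure D5:**
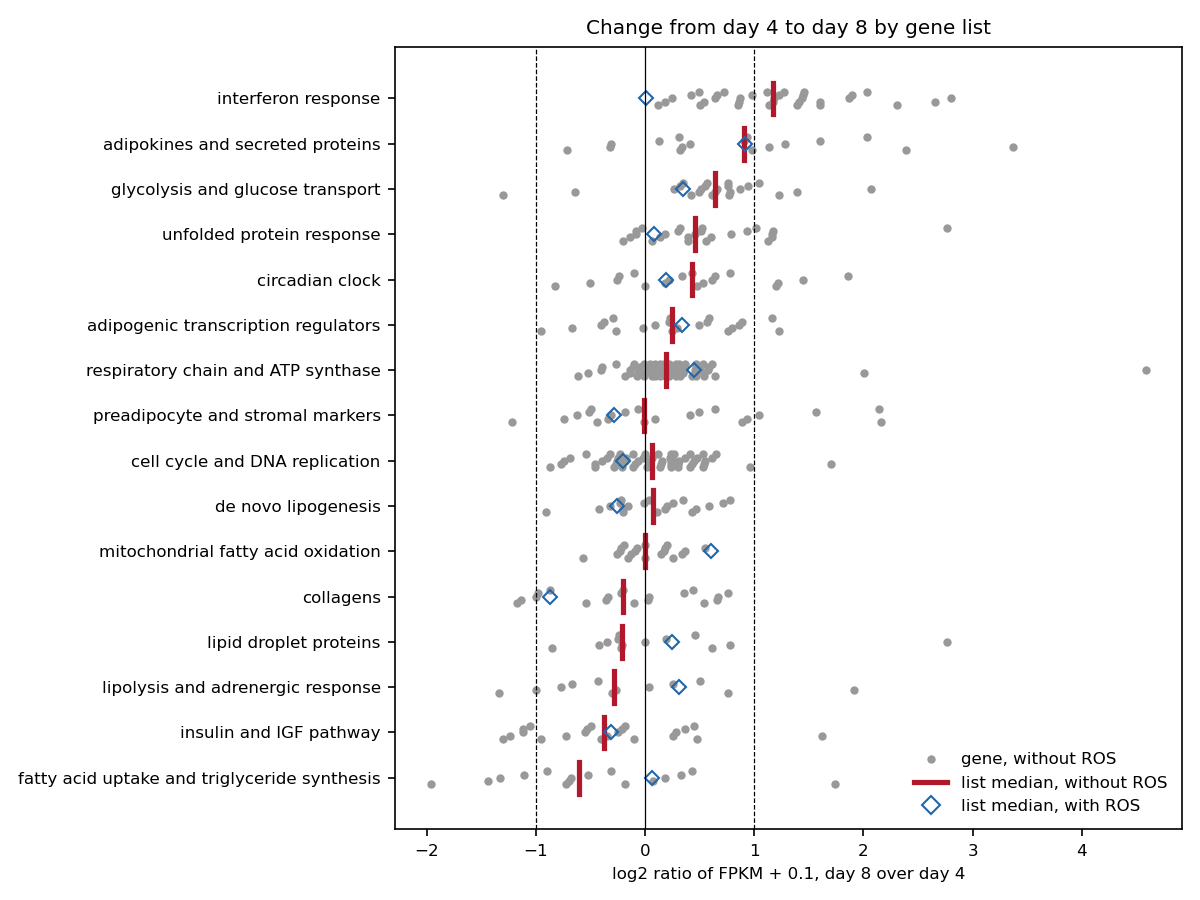
Log2 ratio of FPKM + 0.1 at day 8 over day 4 (horizontal axis) for the measured genes of 16 lists without ROS (grey points), with the list median without ROS (red bars) and with ROS (blue diamonds), and dashed lines at 2-fold. The interferon response median is 1.17 without ROS and 0.01 with ROS, and that of fatty acid uptake and triglyceride synthesis is -0.60 and 0.06.

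Several genes of insulin and IGF signalling were lower. Of 22 measured, 5 were at least 2-fold lower and 1 was higher, with a median of -0.38. Irs1, the docking protein of the insulin receptor, had an FPKM of 18.9 and 7.63, Igf1r, the IGF1 receptor, had 3.01 and 1.22, and Insr, the insulin receptor itself, had 15.6 and 7.1. Irs2, a second docking protein, had 14.3 and 6.86. The first 3 of these transcripts have exon lengths of 9163 bases or more, and after the exon length medians were removed none of the 22 was 2-fold lower and the median was -0.13. Igfbp6, an IGF-binding protein, was the higher gene, with 12.4 and 38.4.

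Some stromal genes, among those at least 2-fold higher, were nearer to their preadipocyte level at day 8 than at day 4. Of 21 preadipocyte and stromal markers, 4 were at least 2-fold higher and 1 lower, with a median of -0.01. On the log2 scale 10 were above 0 and 11 below, so the list as a whole did not move. After the exon length medians were removed, 3 were higher and 1 lower. Ly6a, which encodes the surface protein SCA-1, had an FPKM of 424 and 484 at day 0, 167 at day 4 and 495 at day 8, so its day 8 value was slightly above both preadipocyte samples. With ROS it had 141 and 108. Wisp2, a secreted protein of precursor cells, had 41.8 and 43.8 at day 0, 3.71 at day 4 and 16.9 at day 8. Thy1, a fibroblast surface protein, had 13.6 and 14.9 at day 0, then 2.1 and 4.43. Pi16 was under the minimum at day 4, with 0.256, and had 1.46 at day 8. The lower gene was Cd24a, a surface marker of early precursors, with 4.15 and 1.72.

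Collagens were nearer to their day 4 level than with ROS. Of 19, none was at least 2-fold higher and 3 were lower, with a median of -0.20, and with ROS 8 were lower and the median was -0.87. Col1a1, the main fibrillar chain, had 132 and 170 without ROS and 90.8 and 47.1 with it. The lowest ratios were those of Col11a1, with 3.07 and 1.31, and Col6a3, with 181 and 81.9. After the exon length medians were removed, none of the 19 was 2-fold lower without ROS. Of 36 other matrix proteins 6 were higher and 1 was lower, and after that removal 2 were higher and 1 lower. The small proteoglycan gene Dcn had 37.1 and 84, and Vcan, a large proteoglycan, had 27.4 and 4.58 without ROS and 13.3 and 1.61 with it. Of 30 matrix proteases and inhibitors, 5 were higher and 1, Adamts12, was lower, with 25.6 and 8.56, and after that removal 3 were higher. Timp4, an inhibitor of matrix proteases, had 0.045 and 2.78.

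For comparison with the list counts, 5.04% of all genes were at least 2-fold higher and 1.94% lower. In the actomyosin list 2 of 28 genes were higher, or 1 after the exon length medians were removed. The 2 were Tagln with 1.94 and 5.31 and Tagln2 with 43.5 and 87.8, both actin-binding proteins. Their day 0 values were 23.6 and 27.8 for Tagln and 153 and 170 for Tagln2. Of 18 YAP and TGF-beta response genes, Tgfb1 was higher, with 8.01 and 17.7, and the BMP antagonist Grem1 lower, with 3.54 and 0.945. Of 57 cell cycle and replication genes 1 was higher, Ccnd1, the G1 cyclin, with 25.8 and 26.2 at day 0, 0.656 at day 4 and 2.36 at day 8. Ccnd1 reached the minimum only at day 8. The median of the list was 0.06, and its summed FPKM was 3385 and 3359 in the day 0 pair, 2864 at day 4 and 3366 at day 8. Top2a, the topoisomerase of dividing cells, had 157 and 122 at day 0, 101 at day 4 and 55.2 at day 8. Of 51 ribosomal protein genes none passed 2-fold.

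In the unfolded protein response 6 of 25 were at least 2-fold higher and none lower, with a median of 0.46, and 2 were higher after the exon length medians were removed. Atf3, a stress-induced transcription factor, had an FPKM of 3.59 and 25, Trib3, a pseudokinase of the same response, had 39.2 and 88.6, and Dnajb9, a chaperone, was the lowest with 19.6 and 17. With ROS Atf3 had 4.07 and 22.3. Of 26 antioxidant genes 4 were higher, among them Ephx1, an epoxide hydrolase, with 51.9 and 157. The lower gene was Cat, the catalase, with 523 and 238 without ROS and 507 and 622 with it.

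Of 19 clock genes 4 were higher and none lower, led by Hlf, a PAR-domain factor, with 1.01 and 3.92, while Clock itself had 12.9 and 7.29. Of 18 glucocorticoid-responsive genes 2 were higher, Lcn2 and Hsd11b1, the enzyme that regenerates active glucocorticoid, with 44.6 and 104. Of 14 cAMP-responsive genes 2 were higher and 3 lower. The lower genes were the phosphodiesterases Pde4b, with 12.7 and 5.55, and Pde4d, with 6.49 and 2.95, and the G protein regulator Rgs2, with 94.4 and 42.1. The hypoxia list had 2 of 19 higher and 1 lower, the Wnt list 2 of 18 higher, with the antagonist Sfrp2 at 11.9 and 28.8, and the lysosome list 1 of 25 higher. After the exon length medians were removed none of the 25 was. The shares over all genes were 5.04% higher and 1.94% lower, and no list was tested against them. The JMJD1 demethylases and H3K9 methyltransferases had none of 10 past 2-fold, and Jmjd1c had the lowest ratio with 9.79 and 5.33.

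Of 12 skeletal muscle markers 3 reached the minimum and were at least 2-fold higher, Tnnc2, listed at 0 at day 4 and at 1.69 at day 8, Acta1, with 0.224 and 1.44, and Des, with 4.34 and 10.4. The pericyte and smooth muscle list had 1 of 5 higher, again Des, and 3 after the exon length medians were removed. Of 2 bone and cartilage markers measured, Alpl was higher, with 16.4 and 33.9, and of 2 macrophage markers Cd68, with 0.541 and 2.45, was. Tnnc2, Acta1 and Cd68 reached the minimum only at day 8, which by itself favours a higher call, so their counts are not a result about these lists.

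Among the coding genes with an FPKM of at least 5, the 10 highest ratios included several outside these lists. Mmd2, of the progestin and adipoQ receptor family, had 0.149 at day 4 and 5.29 at day 8. Sncg, which encodes γ-synuclein, had 2.07 and 2.49 at day 0, 0.877 at day 4 and 19.4 at day 8. Syn2, a synapsin, had 1.5 and 25.9. In all of these, the course with ROS was higher at day 8 as well, with 4.5 for Mmd2, 5.44 for Sncg and 11.7 for Syn2. Serpinb1a, an elastase inhibitor, had 5.61 and 5.89 at day 0, 0.496 at day 4 and 6.26 at day 8, and Prodh, the first enzyme of proline breakdown, had 4.69 and 49.5. Pla2g2e, a secreted phospholipase, had 1.67 and 14.8. Serpinb1a had 0.164 and 0.655 with ROS, Prodh 3.45 and 13.4 and Pla2g2e 2.47 and 7.35. The predicted gene Gm4902 had 0.525 and 8.39 without ROS, and 0.82 and 0.81 with it.

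The lowest ratio was that of Clca1, of the family of calcium-activated chloride channel regulators, with 15.2 at day 4 and 0.969 at day 8, a log2 ratio of -3.84. Clca1 was lower with ROS as well, at 7.56 and 1.06. Its reads may be shared with the symbol mCLCA1, which had the same log2 ratio. 2900062L11Rik had 166 and 43.4 without ROS and 177 and 235 with it. Prg4, the lubricating proteoglycan, had 5.14 and 1.32 without ROS and 4.29 and 6.3 with it. Mtap7d2, a microtubule-associated protein, had 42.1 and 11.2, Net1, an exchange factor for RhoA, had 118 and 32.5, and Serpina3g had 6.81 and 2.13. These were also lower at day 8 with ROS, at 39.3 and 6.38, 78.9 and 43.1, and 4.93 and 2.51. Lnpep, the aminopeptidase that travels with the glucose transporter GLUT4, had 20.8 and 6.74, and 16.5 and 12.3 with ROS. Jhdm1d, a histone demethylase, had 5.74 and 1.86, and 4.04 and 2.64 with ROS.

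By difference in FPKM, the 5 largest gains were those of B2m, Cfd, Scd1, H2-D1 and Ftl1, the ferritin light chain, with 1397 and 2444. The 5 largest losses were those of Fabp4, Fabp5, Acsl1, Lpl and Atpase6, a noncoding symbol on chromosome 1 with 4016 and 3218. The last has the name of a mitochondrial subunit, and reads of a close copy may have been placed there.

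The changes without and with ROS share no library and went together across genes, with a Pearson r of 0.606 over the 12607 genes, which are not independent replicates and share exon length. Of the 636 genes at least 2-fold higher without ROS, 215 (33.8%) were also at least 2-fold higher with ROS, which is 46.2% of the 465 higher there. Of the 244 lower, 91 (37.3%) were also lower with ROS, which is 17.5% of the 521 lower there. With ROS, by its own minimum over 12241 genes, 486 were higher (3.97%) and 485 lower (3.96%).

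In 9 genes the changes were at least 2-fold in opposite directions. Higher without ROS and lower with it were Ngfr, the low-affinity nerve growth factor receptor, Mx1, an antiviral GTPase, and Cd248, a stromal surface protein. Ngfr had 8.05 and 30.4 without ROS, and 6.11 and 2.63 with it. Mx1 had 4.8 and 11.7, and 4.01 and 1.26. Cd248 had 40.1 and 44.8 at day 0, then 16 and 37.1 without ROS and 10.9 and 5.09 with it, with a day 8 value near that of the preadipocytes in the untreated course. Lower without ROS and higher with it were Niacr1, the nicotinic acid receptor that restrains lipolysis, with 1.33 and 0.541 against 3.15 and 7.52, St3gal6, a sialyltransferase, with 1.82 and 0.49 against 1.07 and 4.51, and Rnf125, a ubiquitin ligase, with 9.66 and 4.11 against 12.6 and 25.9. Plbd1, Ces1f and the transcript AK204095 did the same, the last not when the transcript with the highest mean FPKM was used. These 9 were picked by their values, and limma called none of them.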

How the data were processed

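RNA-seq of im-scWAT cells was used as deposited: the authors aligned reads to mm9 and gave FPKM for each UCSC transcript and strand, with signal as mapped bases per transcript in place of read counts. No aligner version is given in the sources used here. Of the deposited tables, sense rows flagged as representative were taken, 1 per symbol, and the 5 transduced samples were not used. Log2 ratios used a pseudocount of 0.1 and genes with FPKM of at least 1 in either sample. limma 3.58.1 in R 4.3.3 was run on log2(FPKM + 0.1) with Benjamini-Hochberg adjustment. It was also run on simulated data that gave all genes the same spread, which does not show how it performs on these data. Tables were made in Python with pandas. FPKM holds no counts, so no counting intervals are given. The members and gene lists were chosen with earlier results of these data known. Named genes are the 10 highest and 10 lowest ratios among coding genes with FPKM of at least 5, the 5 largest FPKM differences each way, the 3 largest and 2 smallest ratios of each list, 7 defining genes and those beside the FPKM minimum. Others were chosen after their values were seen. These are the genes said to be so, and Pnpla2, Col1a1, Isg15, Tap1, Rsad2, Gbp2, Ifit3, Psmb9 and Irf7. Agpat9, Rbp4, Pltp, Hp, Pkm2, Thy1, Insr, Irs2, Ccl11 and Pde4d were named because they passed 2-fold in their lists, and single markers listed at 0 because of that value. Some genes that this rule names are not reported here. Sterol, CCAAT and E2F letters were not searched in promoters. Alternatives covered the FPKM minimum, pseudocount, transcript, scaling, fold and limma settings, and exon length.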

Additional observations from a re-analysis of the deposited data

How the results depend on the processing

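Days 4 and 8 have 1 library per course, and the spread was taken from the day 0 pair. The number of genes at least 2-fold higher was 1148 with a minimum FPKM of 0.1, 307 with a minimum of 5, 383 with a pseudocount of 1 and 136 at 4-fold, against 636. In the same order the number lower was 446, 123, 95 and 9, against 244, and the number 2-fold apart in the day 0 pair was 324, 20, 9 and 3, against 67. The other scalings, the other choice of transcript, the minimum on the mean of 6 samples, no pseudocount and the removal of exon length medians (chosen after seeing the data) left each of the 3 counts within 1.5 times. limma called 0 genes for both contrasts under each setting tried, with smallest adjusted p between 0.0674 and 0.231. Of the 880 genes past 2-fold, 478 were past it in the same direction with a pseudocount of 1. Of 332 list medians under alternatives, 318 moved by less than 0.244, the SD of single genes in the day 0 pair. That is a lax limit for a median over many genes and lets a median near 0 change sign. The count therefore does not show that the medians are stable. Among the exceptions were the beige and brown markers (-0.33 over 10 genes at a minimum of 5) and collagens (0.13 after removal of exon length medians). One named gene turned, AK204095, with a log2 ratio of 0.59 when the transcript with the highest mean FPKM was used. No paired analysis was possible because the time points have 1 sample each. Leaving out a day 0 sample leaves no pair and gives no value. FPKM gives no read counts, so precision at low levels is unknown.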
